A study of Mus musculus with 5 samples.

Results

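Cyp2f2, Hsd17b13 and Alb are the 3 periportal genes described here, out of 64 genes on a capture panel that was read in mouse hepatocytes across a fast. They were taken by symbol from the deposited count matrix, each with 1 row, in all 5 libraries. Cyp2f2 encodes a cytochrome P450 of xenobiotic metabolism, Hsd17b13 a lipid droplet protein of the hydroxysteroid dehydrogenase family, and Alb serum albumin, the main protein secreted by hepatocytes. The liver lobule runs from the portal vein to the central vein, and hepatocytes along that axis differ in what they express. Cyp2f2 and Hsd17b13 are textbook markers of its portal side, where gluconeogenesis and urea synthesis are strong, while Alb is made along the whole axis with more on the portal side. Cyp2e1, a cytochrome P450 of the central side, served here to order the cells.

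All groups were male C57BL/6J mice of wild-type (WT) genotype, fed a normal chow diet, and their isolated hepatocytes gave 1 targeted single-cell library at each of 5 times. For 3 days the mice had gone 16 h without food and had then been fed for 8 h. On the last day drinking water held 20% sucrose, and the fed library (0 h) came after 4 h of feeding at clock hour 13. The fasted libraries came 8, 16, 24 and 30 h after food and sucrose water were removed, at clock hours 21, 5, 13 and 19. The sources used here give neither the age of the mice nor how many stand behind a library. With 1 library per time, no difference below has a replicate error and no test was made. Hours of fasting and clock hour cannot be told apart, except that 0 h and 24 h share the clock hour. All intervals are at 95% and cover counting error only.

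The libraries held 7208, 12153, 9460, 8558 and 10094 cell barcodes at 0, 8, 16, 24 and 30 h, and between 3979629 (8 h) and 11288725 (30 h) panel UMIs (unique molecule tags). The 8 h library stood apart, with a median of 219 UMIs per barcode against 651 to 1202.5 in the other 4. Measures per barcode therefore used barcodes of 300 or more UMIs, which were 42.5% of barcodes after 8 h and 87.3% to 94.5% elsewhere. Of 47235 barcode sequences, 238 occurred in 2 libraries. Of 17 listed periportal markers 6 were on the panel, of 14 pericentral markers 5, and of 14 markers of other liver cells 6 (Cdh5, Mrc1, Cd68, Ptprc, Pdgfra and Pdgfrb). The summed level of these last 6 was 220 UMIs per 1000000 panel UMIs (CPM) after 8 h and 29.7 to 76.2 in the other libraries, beside 694271 or more for Alb alone.

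The 3 genes lie on 2 chromosomes of GRCm38. Cyp2f2 (ENSMUSG00000052974) spans chr7:27119909-27133660 on the plus strand, with up to 10 exons in a transcript, and an exon of Gm15883 overlaps one of its own on the other strand. Since the sources used here do not give the strand setting of the counting, UMIs of Cyp2f2 and Gm15883 cannot be told apart with certainty. Hsd17b13 (ENSMUSG00000034528) spans chr5:103955440-103977410 on the minus strand, with up to 7 exons. Alb (ENSMUSG00000029368) spans chr5:90460897-90476602 on the plus strand, with up to 15 exons. No exon of another gene overlaps Hsd17b13 or Alb.

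Bases upstream of each gene are shown because the 3 genes varied together from cell to cell. They are from RefSeq on GRCm38.p6, read along the gene's own strand, and stop before the annotated first exon. The windows are chr7:27119705-27119908 for Cyp2f2, chr5:103977411-103977638 for Hsd17b13 (minus strand) and chr5:90460620-90460869 for Alb. The Alb window ends before its RefSeq start, and the bases from there to the annotated start at 90460897 are not shown. Capitals mark matches, on either strand, to 4 short motifs: GTTAAT (part of the site of HNF1 factors), CCAAT (a common promoter box), CTTTGA (the core read by TCF factors) and CAAAGTC (part of the site of HNF4 factors).
Cyp2f2: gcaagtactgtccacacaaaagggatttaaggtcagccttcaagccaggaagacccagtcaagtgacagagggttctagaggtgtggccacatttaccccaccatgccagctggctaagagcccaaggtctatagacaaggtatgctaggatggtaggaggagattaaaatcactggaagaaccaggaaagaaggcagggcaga
Hsd17b13: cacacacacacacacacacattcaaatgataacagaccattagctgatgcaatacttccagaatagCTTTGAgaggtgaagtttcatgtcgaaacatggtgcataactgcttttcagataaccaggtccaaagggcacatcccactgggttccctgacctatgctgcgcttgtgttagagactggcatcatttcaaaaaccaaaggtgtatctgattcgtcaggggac
Alb: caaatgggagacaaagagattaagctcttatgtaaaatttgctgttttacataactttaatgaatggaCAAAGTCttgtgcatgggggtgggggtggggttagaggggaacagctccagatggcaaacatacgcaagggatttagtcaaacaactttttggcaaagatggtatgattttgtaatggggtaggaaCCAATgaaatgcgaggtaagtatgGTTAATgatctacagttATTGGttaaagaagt
The Alb window held GTTAAT and CAAAGTC once each and CCAAT on both strands. The printed Hsd17b13 window held 1 CTTTGA. In the 22 bases before its RefSeq start that lie in the annotated first exon, and are not printed, were a CTTTGA on the other strand and an overlapping CAAAGTC. The 250 bases before the Cyp2f2 start held none of the 4, which says only that these letters are not in them. The motifs are short and common. In the 250 bases before each of 32851 RefSeq starts, CCAAT was found in 33.8%, CTTTGA in 13.8%, GTTAAT in 6.43% and CAAAGTC in 3.84%.

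Cyp2f2 was highest in the fed library and lowest after 24 h. The fed library had 19296 CPM (Poisson interval 19197 to 19395), and Cyp2f2 then stood at 13797 after 8 h (13682 to 13913), 16026 after 16 h (15926 to 16127), 10422 after 24 h (10360 to 10484) and 16339 after 30 h (16265 to 16414). All 4 fasted libraries lay below the fed one, and no pair of Poisson intervals overlapped. The log2 ratio to 0 h was -0.48 after 8 h, -0.27 after 16 h, -0.89 after 24 h (conditional binomial interval -0.90 to -0.88) and -0.24 after 30 h. The 24 h level was 1.85-fold lower than that of the fed library taken at the same clock hour. From 24 h to 30 h it was 1.57-fold higher again.

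Alb took about 7 in every 10 panel UMIs, so CPM values are close to ratios to Alb. Counted against the other 63 genes alone, Cyp2f2 stood at 63115, 48077, 55023, 36946 and 54291 UMIs per 1000000 non-Alb UMIs in order of time. On that scale all fasted libraries were again below the fed one (log2 -0.39, -0.20, -0.77 and -0.22), but the order of 16 h and 30 h was exchanged. How far these neighbours differ beyond the spread between mice cannot be judged from 1 library each.

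Hsd17b13 had another course, with its highest level at the end of the fast. It stood at 4180 CPM at 0 h (4134 to 4226), 3682 after 8 h (3622 to 3742), 4322 after 16 h (4270 to 4374), 3280 after 24 h (3245 to 3315) and 5914 after 30 h (5869 to 5959). The 30 h library stood 1.41-fold above the fed one (log2 0.50, 0.48 to 0.52) and 1.80-fold above 24 h. The log2 ratio to 0 h was -0.18 after 8 h, 0.048 after 16 h and -0.35 after 24 h. Against non-Alb UMIs the order of the 5 libraries was the same, with 13671, 12828, 14838, 11627 and 19651 UMIs per 1000000. Like Cyp2f2, Hsd17b13 was lowest after 24 h. Counted per barcode, with no correction for depth, Hsd17b13 had 4.38, 1.21, 2.81, 4.00 and 6.61 UMIs and Cyp2f2 20.2, 4.52, 10.4, 12.7 and 18.3, which puts Hsd17b13 after 16 h below the fed library (log2 -0.64) and makes 8 h the lowest for both.

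Alb was nearly level in share. It made up 694271 CPM at 0 h (69.4% of panel UMIs), 713021 after 8 h (71.3%), 708735 after 16 h (70.9%), 717907 after 24 h (71.8%) and 699040 after 30 h (69.9%). The log2 ratios to 0 h were 0.038, 0.030, 0.048 and 0.0099, all higher and at most 1.03-fold. Since Alb is itself most of the denominator, a share can show little of a change in its amount. Per barcode, Alb had 727, 233, 461, 875 and 782 UMIs, an order that goes with depth and that puts 8 h and 16 h below the fed library (log2 -1.64 and -0.66). Scaled by the median of ratios over genes, Alb after 8 h was also slightly below it (-0.021).

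All 3 genes stayed within 2-fold of the fed level at each time (0 of 3 past it). Of the 56 genes with enough UMIs, 30.4% were past it after 8 h, 39.3% after 16 h, 32.1% after 24 h and 42.9% after 30 h, in either direction. With 3 genes, nothing particular to them can be read from that. The median log2 ratio of the 3 genes was -0.18, 0.030, -0.35 and 0.0099, beside 0.047, -0.15, -0.12 and -0.071 over all 56. The other listed periportal genes on the panel, which serve gluconeogenesis and serine use, were higher in all 4 fasted libraries. Pck1, the cytosolic phosphoenolpyruvate carboxykinase, had log2 ratios of 1.58, 2.06, 1.66 and 2.58, and Sds, serine dehydratase, 1.49, 0.30, 0.95 and 2.10. G6pc, the glucose-6-phosphatase catalytic subunit, had 0.98, 0.94, 0.49 and 0.61. Cyp2e1 was also higher, by 0.99, 0.88, 1.45 and 1.58 on the log2 scale.

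**Figure D1:**
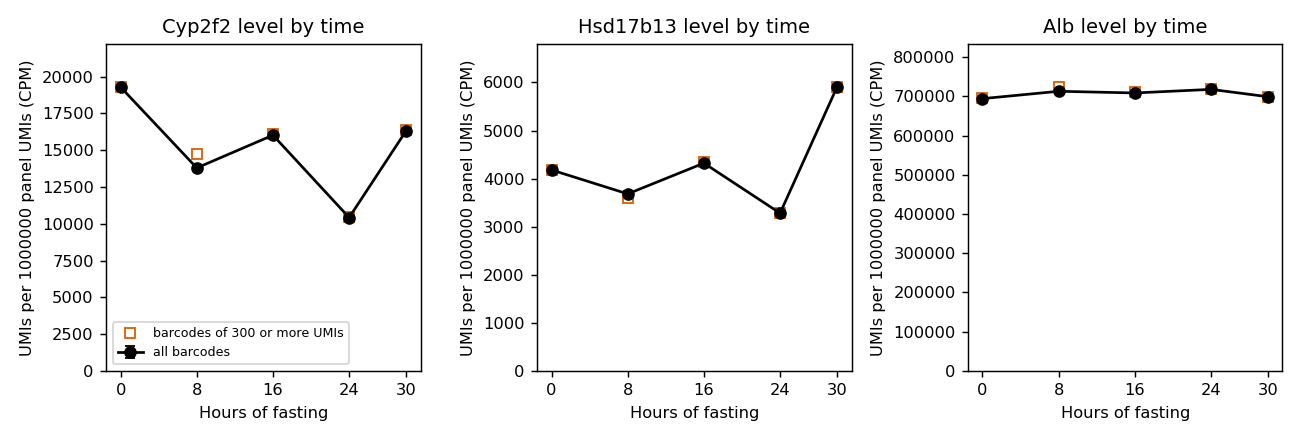
Level of Cyp2f2, Hsd17b13 and Alb (CPM, axes from 0) against hours of fasting, with 1 library per point. Filled circles are all barcodes with 95% Poisson intervals, which are mostly smaller than the symbols, and open squares are barcodes of 300 or more UMIs. Cyp2f2 ran from 19296 down to 10422 after 24 h, Hsd17b13 peaked at 5914 after 30 h, and Alb stayed between 694271 and 717907.

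Cyp2f2 and Hsd17b13 can be set against each other with no denominator. There were 4.62 Cyp2f2 UMIs for each Hsd17b13 UMI at 0 h (4.56 to 4.67), 3.75 after 8 h (3.68 to 3.82), 3.71 after 16 h (3.66 to 3.76), 3.18 after 24 h (3.14 to 3.22) and 2.76 after 30 h (2.74 to 2.79). The ratio was lower at each later time, with overlapping intervals only after 8 h and 16 h. Relative to 0 h it differed by -0.30, -0.32, -0.54 and -0.74 on the log2 scale. Its absolute size also depends on how well each gene was captured, so only its differences between libraries can be read. In barcodes of 300 or more UMIs the 8 h value was 4.08, and the others moved little (4.63 at 0 h, 3.71 after 16 h, 3.18 after 24 h and 2.77 after 30 h). Leaving out barcode sequences found in 2 libraries gave 4.62, 3.74, 3.71, 3.18 and 2.76.

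The order of the libraries was much the same along the Cyp2e1 axis. When barcodes were split into quintiles by the share of Cyp2e1 in their non-Alb UMIs, the ratio at 0 h lay between 4.39 and 4.82 in all 5 quintiles. At 16 h it lay between 3.23 and 4.00, after 24 h between 2.67 and 3.42, and after 30 h between 2.16 and 2.92. The 8 h library again stood apart, at 4.25, 4.48 and 4.48 in its first 3 quintiles and 3.56 and 2.42 in the last 2. In the 3 quintiles with least Cyp2e1, no interval of one library overlapped that of another except those of 0 h and 8 h in the first 2 quintiles.

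**Figure D2:**
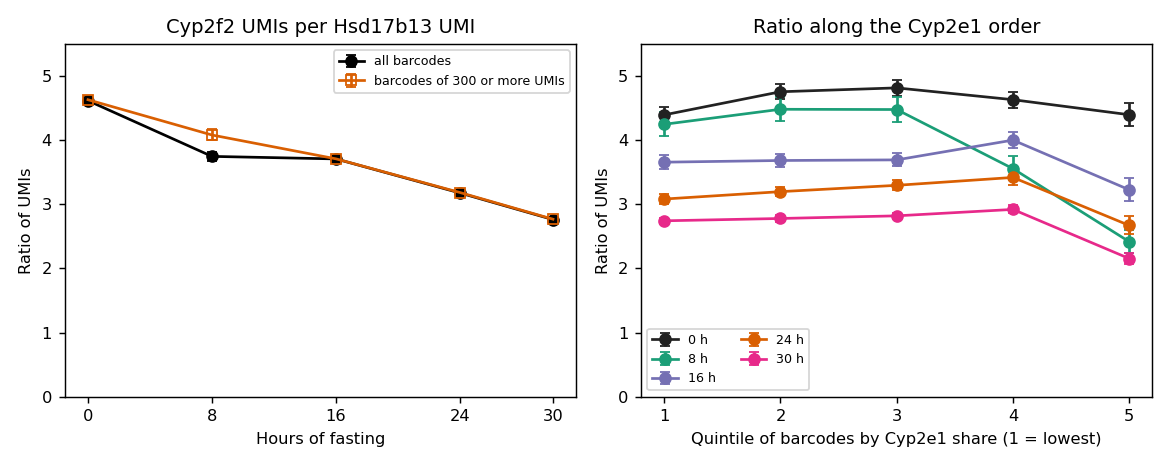
Left, Cyp2f2 UMIs per Hsd17b13 UMI against hours of fasting in all barcodes and in those of 300 or more UMIs. Right, the same ratio in quintiles of barcodes ordered by Cyp2e1 share, 1 line per library, with 95% counting intervals. The ratio ran from 4.62 at 0 h to 2.76 after 30 h, and after 30 h every quintile lay below every quintile of 0 h.

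From barcode to barcode, Cyp2f2 had 2 peaks in each library, a broad one of high barcodes and a narrow one near 0. In bins of 5 UMIs per 1000 non-Alb UMIs, the upper peak lay at 65 to 70 at 0 h, 16 h and 30 h, at 80 to 85 after 8 h, and at 45 to 50 after 24 h. The tallest bin of the lower peak held 4.42%, 12.2%, 5.86%, 9.14% and 8.66% of barcodes in order of time, and that of the upper peak 7.53%, 4.57%, 6.63%, 8.63% and 7.29%. The trough between the peaks lay at 15 to 20 at 0 h and 30 h and at 20 to 25 in the other libraries. A border of 20 per 1000 was set at this trough after the distribution was seen, and it cuts a range, not a cell type. Between 2.10% (0 h) and 8.15% (24 h) of barcodes lay within 5 of it.

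Below that border lay 10.2% of barcodes at 0 h (Clopper-Pearson interval 9.47 to 10.9), 25.7% after 8 h (24.5 to 26.9), 16.5% after 16 h (15.8 to 17.4), 26.8% after 24 h (25.8 to 27.7) and 17.0% after 30 h (16.2 to 17.8). Every fasted library had a larger low range than the fed one. This share has Cyp2e1 in its denominator. In the low range Cyp2e1 had a median of 185, 116, 215, 236 and 349 per 1000 non-Alb UMIs in order of time. Its part in the size of the low range was not tested. Above the border the median was 72.7 per 1000 at 0 h, 78.4 after 8 h, 69.2 after 16 h, 49.3 after 24 h and 68.7 after 30 h. The 24 h library thus differed from the fed one both in how many barcodes were low and in the level of the high ones, while the 16 h and 30 h libraries differed from it mainly in the first.

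The low range was poor in the other 2 genes as well. Its median of Hsd17b13 was 2.38 to 3.64 per 1000 non-Alb UMIs, against 14.4 to 23.5 above the border, and its median Alb share was 47.7% to 60.4% of panel UMIs, against 71.6% to 76.8%. Cyp2e1 had a median of 116 to 349 per 1000 in the low range and 6.21 to 32.0 above it. Barcodes of the low range were also shallower, with a median of 715 UMIs against 1132 at 0 h, 483 against 573 after 8 h, 504 against 754 after 16 h, 930 against 1449.5 after 24 h and 854.5 against 1259.5 after 30 h. Thinned to 200 non-Alb UMIs, with barcodes of fewer left out, 10.5%, 46.6%, 22.9%, 26.8% and 18.2% lay in the low range. At 8 h only 1292 of 5159 barcodes had enough non-Alb UMIs for that step. The low range held less Alb (median 60.4% after 8 h, against 76.8% above the border). At a given depth its barcodes therefore pass this filter more easily. The parts of depth and of this filter in the 8 h share were not tested.

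Over all barcodes of 300 or more UMIs, the median of Cyp2f2 was 69.3 per 1000 non-Alb UMIs at 0 h, 62.8 after 8 h, 62.9 after 16 h, 41.5 after 24 h and 62.9 after 30 h. Hsd17b13 had medians of 13.4, 11.9, 14.6, 11.0 and 20.5, and Alb of 70.8%, 74.2%, 73.4%, 73.7% and 71.4% of panel UMIs. In these medians, too, 24 h was lowest for both Cyp2f2 and Hsd17b13, and 30 h was highest for Hsd17b13. Percentiles 5 to 95 of Cyp2f2 ran from 5.95 to 117 per 1000 at 0 h and from 0 to 143 after 8 h. Barcodes with no Cyp2f2 UMI were 1.72%, 8.33%, 3.14%, 2.67% and 2.91%, and those with no Hsd17b13 UMI 6.79%, 21.2%, 12.6%, 11.2% and 5.53%. Alb had a UMI in every barcode kept, with upper bounds on the share without one between 0.0387% and 0.0715%.

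The spread beyond counting noise was taken as a coefficient of variation (CV) after barcodes were thinned to 100 non-Alb UMIs (300 panel UMIs for Alb). Barcodes with fewer non-Alb UMIs were left out, except for Alb. This kept 6553 barcodes at 0 h, 3939 of 5159 after 8 h, 7598 after 16 h, 7789 after 24 h and 9322 after 30 h. The 8 h set was short of barcodes with low Cyp2e1, as given under detection below. Cyp2f2 had a CV of 0.41, 0.69, 0.49, 0.55 and 0.50 in order of time, Hsd17b13 0.54, 0.62, 0.55, 0.63 and 0.62, and Alb 0.15, 0.14, 0.17, 0.16 and 0.17. Cyp2f2 was thus most even in the fed library, and Alb varied least of the 3 in every library. Among 44 genes of 1000 or more UMIs in every library, whose median CV was 0.41 to 0.49, Cyp2f2 ranked between 11 and 25 from the most variable and Hsd17b13 between 8 and 17. The pericentral gene Cyp2e1 had a CV of 1.08 to 2.15, so Cyp2f2 and Hsd17b13 varied less than the gene that ordered the barcodes.

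**Figure D3:**
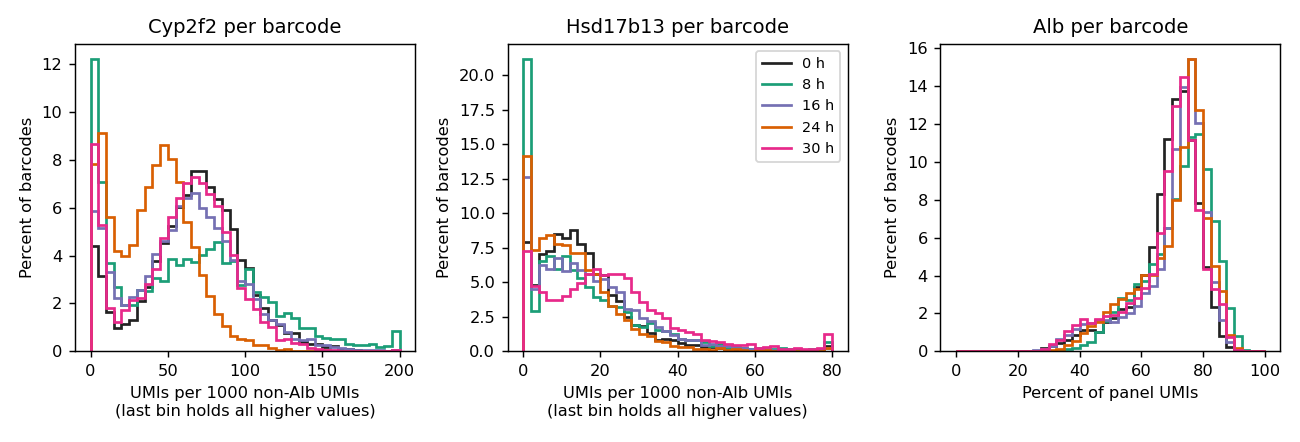
Distribution over barcodes of 300 or more UMIs of Cyp2f2 and Hsd17b13 (UMIs per 1000 non-Alb UMIs) and Alb (percent of panel UMIs), 1 line per library, as percent of barcodes in each bin. Cyp2f2 shows a peak near 0 and an upper peak, which lies at 65 to 70 at 0 h, 16 h and 30 h and at 45 to 50 after 24 h.

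Detection was compared at a fixed depth of 100 non-Alb UMIs, and barcodes with fewer were left out. These were 151 at 0 h, 1220 after 8 h, 662 after 16 h, 275 after 24 h and 212 after 30 h. After 8 h, 615 of 1032 barcodes stayed in the lowest Cyp2e1 quintile and 481 of 515 in the highest decile. Low Cyp2e1 was thus under-represented in the 8 h values. At that depth Cyp2f2 was found in 94.5% of barcodes at 0 h, 83.0% after 8 h, 91.3% after 16 h, 87.5% after 24 h and 89.9% after 30 h. Without thinning it was found in 98.3%, 90.7%, 96.7%, 97.4% and 97.1% of the same barcodes. In the quintile with least Cyp2e1 the thinned share was 99.1% to 99.9%. In the decile with most Cyp2e1 it was 56.2%, 46.2%, 50.1%, 44.5% and 37.0%, and for Hsd17b13 between 22.5% (16 h) and 32.2% (8 h). Barcodes with 3 or more UMIs of the 6 genes of other liver cells numbered 11, 2, 1, 6 and 9. Of the 11 at 0 h (median 1371 UMIs, against 1097 over all barcodes), 90.9% had Cyp2f2 at the thinned depth (58.7% to 99.8%). Such barcodes were too few, and too often held Cyp2f2, to set a background. The part of free RNA in the UMIs of the highest Cyp2e1 decile was not tested.

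The 3 genes went up and down together over barcodes. Spearman's rho of Cyp2f2 with Hsd17b13 was 0.42 at 0 h, 0.46 after 8 h, 0.47 after 16 h, 0.57 after 24 h and 0.57 after 30 h. With Alb, Cyp2f2 had 0.55, 0.66, 0.59, 0.70 and 0.63, and Hsd17b13 had 0.53, 0.46, 0.53, 0.62 and 0.68. These are descriptions over 5159 to 9534 barcodes that share a library, its depth and a denominator. Over the 990 pairs of 45 genes of 1000 or more UMIs, the median rho was between 0.00033 and 0.019. At most 8 of those pairs were more closely coupled than any one of the 3 pairs, and the pair of Cyp2f2 and Alb was the highest of all at 0 h, 8 h, 16 h and 24 h.

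Counting noise lowers such a rho in sparse data. With that noise removed at a depth of 100 non-Alb UMIs, a Pearson-type correlation of the shares of Cyp2f2 and Hsd17b13 was 0.68, 0.77, 0.80, 0.74 and 0.73. This is another measure than rho, over fewer barcodes (3939 rather than 5159 after 8 h). Its distance from rho is therefore not the effect of noise alone. A direct view came from quintiles of barcodes by Cyp2f2. Hsd17b13 went from 6.72 per 1000 other UMIs (Alb and Cyp2f2 left out) in the lowest quintile to 21.3 in the highest at 0 h, from 4.56 to 24.1 after 8 h, from 4.61 to 24.1 after 16 h, from 3.22 to 18.9 after 24 h and from 4.75 to 32.6 after 30 h. It was higher in each next quintile in all 5 libraries, and Alb went with it, from 57.1% to 74.9% of panel UMIs at 0 h and from 50.7% to 76.5% after 30 h. The largest step of Hsd17b13 between neighbours lay from the lowest quintile to the next in all libraries but that of 8 h, for example from 4.75 to 21.1 after 30 h.

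Much of the coupling went with the Cyp2e1 order. Within deciles of barcodes by Cyp2e1 share, the mean rho of Cyp2f2 with Hsd17b13 was 0.22, 0.19, 0.14, 0.16 and 0.20, that of Cyp2f2 with Alb 0.33, 0.36, 0.25, 0.28 and 0.26, and that of Hsd17b13 with Alb 0.35, 0.24, 0.22, 0.23 and 0.38. All 15 means were lower than the value over all barcodes, and all were above 0. Single deciles ranged from -0.071 to 0.63, and the lowest was that of Cyp2f2 with Alb after 24 h.

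**Figure D4:**
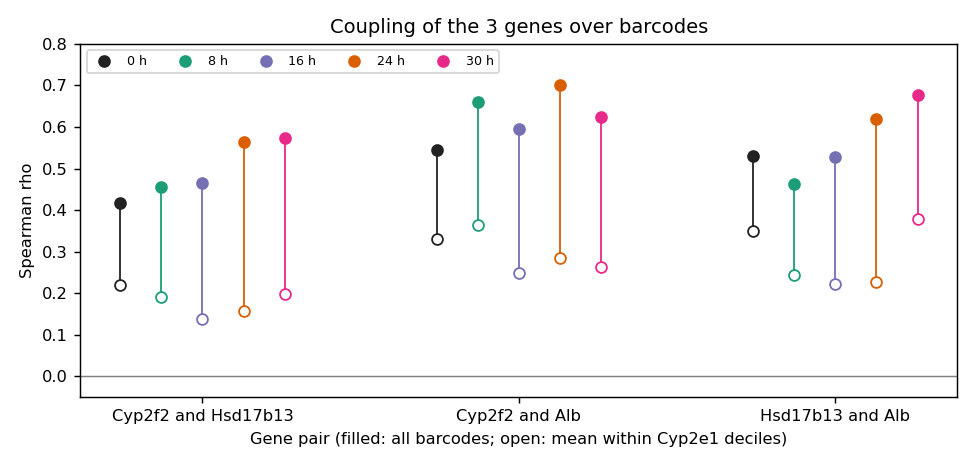
Spearman's rho over barcodes of 300 or more UMIs for each pair of the 3 genes, 1 colour per library. Filled circles are all barcodes and open circles the mean within deciles of the Cyp2e1 share. Filled circles lie between 0.42 and 0.70, and open ones between 0.14 and 0.38.

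Among the other 42 of these 45 genes, the one most like each of the 3 was Igf1, the liver's main secreted growth factor. Its mean rho over the 5 libraries was 0.41 with Cyp2f2, 0.36 with Hsd17b13 and 0.44 with Alb. Next came Pck1 (0.39) and Sds (0.36) for Cyp2f2, Sds (0.31) and Pck1 (0.29) for Hsd17b13, and G6pc (0.32) and Sds (0.32) for Alb. The lowest for all 3 was Cyp2e1, at -0.57, -0.48 and -0.56. The median over the 42 genes lay between -0.088 and 0.067 for each of the 3 genes in every library.

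Along the Cyp2e1 order, Cyp2f2 and Hsd17b13 had the steepest decline of the panel. Levels here are UMIs per 1000 UMIs without Alb and Cyp2e1, so that the ordering gene is not in the denominator. Cyp2f2 stood at 74.1 in the lowest Cyp2e1 quintile and 29.6 in the highest at 0 h, 86.5 and 14.2 after 8 h, 73.8 and 17.1 after 16 h, 54.7 and 12.0 after 24 h, and 73.9 and 15.4 after 30 h. These are log2 differences of 1.32, 2.61, 2.11, 2.19 and 2.26, or 2.50-fold to 6.09-fold. Hsd17b13 stood at 16.9 and 6.73, 20.4 and 5.87, 20.2 and 5.31, 17.8 and 4.50, and 26.9 and 7.15, with log2 differences of 1.32, 1.79, 1.93, 1.98 and 1.91. Both were lower in the highest quintile in all 5 libraries.

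Alb had a shallow gradient. Its share of panel UMIs without Cyp2e1 was 72.6% in the lowest quintile and 58.7% in the highest at 0 h, 78.4% and 64.6% after 8 h, 75.8% and 58.4% after 16 h, 77.8% and 62.4% after 24 h, and 74.6% and 61.1% after 30 h, log2 differences of 0.28 to 0.38. Cyp2f2 and Hsd17b13 were over 2-fold higher in the lowest quintile in every library, and Alb in none. Of all genes with enough UMIs, 7.84% were at 0 h, 8.33% after 8 h, 6% after 16 h, 6% after 24 h and 7.84% after 30 h. Cyp2f2 and Hsd17b13 took the first 2 ranks of 48 to 51 genes in every library, and Alb ranked between 10 and 14. The median over all genes was between -0.20 and -0.088.

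The periportal label was checked against the other markers. Sds (log2 0.96 to 1.52), G6pc (0.35 to 0.84) and Pck1 (0.21 to 0.71) were also higher in the lowest Cyp2e1 quintile in all 5 libraries. The pericentral genes Glul (glutamine synthetase, -2.96 to -1.05), Gulo (-4.48 to -3.35), Cyp27a1 (-1.30 to -0.92) and Cyp7a1 (the rate-limiting enzyme of bile acid synthesis, -4.98 to -3.40) were lower there in all 5. The markers on both sides thus lay where their labels place them. The highest quintile was also the shallower one, with a median of 727.5 UMIs against 1086 at 0 h, 452 against 570 after 8 h, 508 against 772.5 after 16 h, 841.5 against 1546 after 24 h and 856 against 1297 after 30 h. In barcodes of 1000 or more UMIs, ordered anew, the Cyp2f2 difference was 0.48, 1.65, 0.25, 1.84 and 1.07 and that of Hsd17b13 0.56, 1.42, 0.24, 1.77 and 1.17, the same in direction and smaller in size. The part of depth in the gradients was not tested further.

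Cyp2f2 varied little over the low deciles and dropped over the high ones. In the 5 deciles with least Cyp2e1, Cyp2f2 lay between 72.2 and 76.7 at 0 h, 79.8 and 90.5 after 8 h, 72.1 and 76.4 after 16 h, 53.3 and 56.0 after 24 h, and 73.1 and 74.1 after 30 h. The means over these 5 deciles, called the plateau here, were 74.2, 83.5, 74.0, 54.0 and 73.8. In this share the 0 h, 16 h and 30 h libraries were thus nearly equal there and 24 h was lower. The order carries little information in the low deciles of some libraries. At 0 h all 671 barcodes of decile 1 and 372 of decile 2 had no Cyp2e1 UMI, and decile 3 had a median of 3.30 per 1000, about 1 UMI at the library's median of 322 non-Alb UMIs. After 8 h 516 and 301 barcodes of the first 2 deciles had none, and after 16 h 826 and 187. After 24 h and 30 h only 36 and 128 barcodes of decile 1 had none, and the narrow ranges above were found there too. In the last decile Cyp2f2 was at 14.0, 9.66, 10.5, 9.56 and 8.30, which is 11.3% to 18.9% of the plateau.

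The place of the drop differed between libraries. Cyp2f2 was under 50% of its plateau first in decile 10 at 0 h, in decile 8 after 8 h and 24 h, and in decile 9 after 16 h and 30 h. Hsd17b13 passed that mark in the same decile as Cyp2f2 in all 5 libraries. Its plateau means were 16.2, 19.0, 20.2, 17.0 and 26.5, and its last decile held 18.2% to 27.2% of them. The Hsd17b13 plateau was thus lowest in the fed library and highest after 30 h, whereas the Cyp2f2 plateau was lowest after 24 h. Alb kept 73.5% to 82.5% of its plateau in the last decile and passed 90% in decile 8 or 9.

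**Figure D5:**
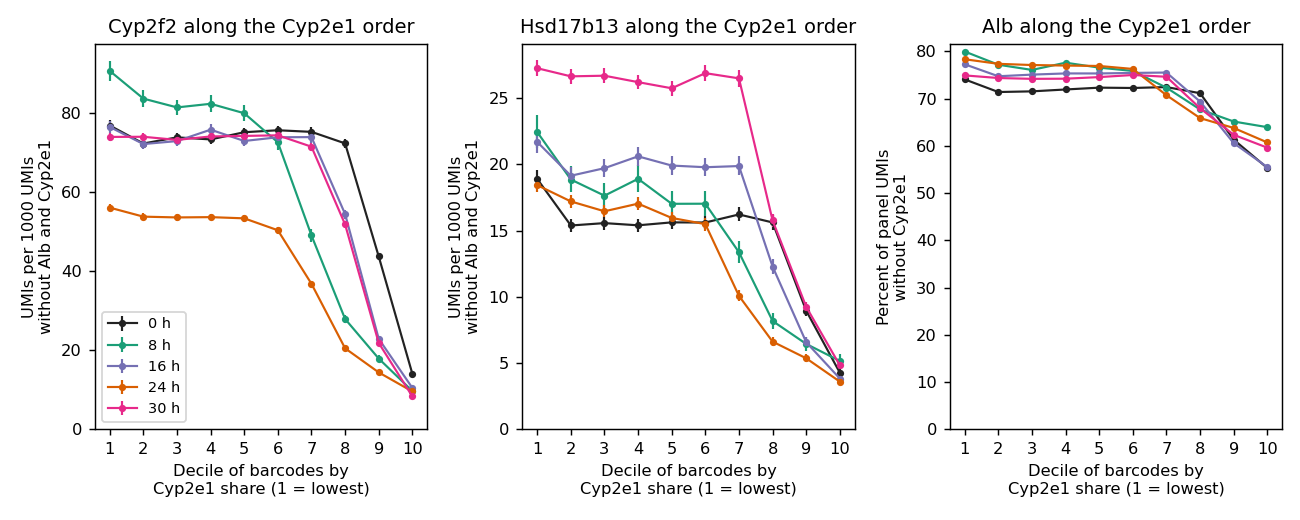
Levels in deciles of barcodes ordered by the share of Cyp2e1 in non-Alb UMIs, 1 line per library, with 95% Poisson intervals and axes from 0. Cyp2f2 and Hsd17b13 are UMIs per 1000 UMIs without Alb and Cyp2e1, and Alb is percent of panel UMIs without Cyp2e1. Cyp2f2 varies little over the first 5 deciles, with means of 54.0 (24 h) to 83.5 (8 h), except that it goes from 90.5 to 79.8 after 8 h, and drops to 8.30 to 14.0 in the last.

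Deciles and quintiles hold the same number of barcodes in each library, but not the same Cyp2e1. The median share of Cyp2e1 per 1000 non-Alb UMIs was 7.08 at 0 h, 20.6 after 8 h, 14.5 after 16 h, 40.9 after 24 h and 22.0 after 30 h. Barcodes with no Cyp2e1 UMI, which were ordered only by their place in the file, were 15.6%, 15.8%, 12.3%, 0.45% and 1.34%. With 1 pair of borders for all libraries (6.67 and 109 per 1000), 47.8%, 21.4%, 23.3%, 0.88% and 6.58% of barcodes lay below the lower one, and 10.1%, 15.6%, 17.8%, 31.0% and 25.6% at or above the upper one. Between these borders' outer groups the Cyp2f2 difference was 2.39, 2.85, 2.32, 1.89 and 1.75 on the log2 scale and that of Hsd17b13 1.89, 1.86, 2.03, 1.97 and 1.67. By quintiles the Cyp2f2 gradient was therefore smallest at 0 h, and by fixed borders it was smallest after 30 h.

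On the portal side both ways of cutting gave like values for Cyp2f2. In the lowest Cyp2e1 quintile the log2 ratio of Cyp2f2 to 0 h was 0.22 after 8 h, -0.0047 after 16 h, -0.44 after 24 h and -0.0032 after 30 h, and below the fixed lower border it was 0.23, 0.00028, -0.38 and 0.0051. Cyp2f2 was thus at the fed level in these barcodes after 16 h and 30 h, above it after 8 h and below it after 24 h. Only 71 barcodes lay below the lower border after 24 h. For Hsd17b13 the log2 ratios to 0 h were 0.27, 0.26, 0.076 and 0.68 by quintiles and 0.35, 0.33, 0.39 and 0.80 by fixed borders. In the same share it was thus above the fed level throughout, but with intervals well apart after 24 h (0.031 to 0.12 and 0.21 to 0.55).

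On the central side the 2 ways differed more. In the highest Cyp2e1 quintile Cyp2f2 had log2 ratios to 0 h of -1.06, -0.79, -1.30 and -0.94, but at or above the fixed upper border -0.24, 0.068, 0.12 and 0.65. Hsd17b13 had -0.20, -0.34, -0.58 and 0.087 by quintiles and 0.37, 0.18, 0.30 and 1.02 by fixed borders. The sign was the same both ways for Cyp2f2 after 8 h and Hsd17b13 after 30 h, and differed for Cyp2f2 after 16, 24 and 30 h and for Hsd17b13 after 8, 16 and 24 h. Alb had values of -0.0073 to 0.14 in the highest quintile and of 0.056 to 0.22 at or above the fixed upper border.

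Barcodes high in both Cyp2e1 and Cyp2f2 were rare. Of the decile with most Cyp2e1, 7 of 670 barcodes at 0 h had a Cyp2f2 share above the library's median, 5 of 515 after 8 h, 1 of 826 after 16 h, 3 of 806 after 24 h and 1 of 953 after 30 h. This share has Cyp2e1 in its denominator, unlike the gradients above. Cyp2e1 had a median of 199 (0 h) to 408 (30 h) per 1000 non-Alb UMIs in that decile, which by itself lowers the Cyp2f2 share. Conversely, few deep barcodes lacked Cyp2f2. Of those with 1000 or more UMIs, 1 of 3792, 2 of 151, 0 of 999, 18 of 5287 and 34 of 6203 had no Cyp2f2 UMI. The 34 after 30 h held 387 Cyp2e1 UMIs per 1000 non-Alb UMIs, against 75.1 over all deep barcodes.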

How the data were processed

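What the authors deposited is a 64-gene by 47473-barcode table of raw UMI counts from Cell Ranger 6.0.1, per the file headers, and a table giving the library of each barcode. The submitters' processing notes name mm10. How cells were called, with which annotation, and whether depth was equalised is not given in the sources used here. Levels used all barcodes, and measures per barcode those of 300 or more UMIs, with no doublet caller. Gene positions came from GENCODE release M21, and promoters from RefSeq (3 of 3 matched). A gene was called past 2-fold, among genes of 100 or more UMIs in both groups together. Python 3.11.15, numpy 2.4.6, scipy 1.17.1 and pandas 2.3.3 were used, and the steps were tested on simulated data. Intervals were exact Poisson, conditional binomial or Clopper-Pearson. No test was made. Genes named were the 3 genes, Cyp2e1, the 3 most like each gene and the least like one, and panel genes on 2 zone lists; Gm15883 is named for its overlap. The genes and lists were chosen with earlier results of these data known. Alternatives were other denominators and scalings, deeper barcodes, no barcodes of the top 5% by UMIs, fixed Cyp2e1 borders, an order by Glul and Gulo, and other thinning depths.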

Additional observations from a re-analysis of the deposited data

Results flagged for a closer look

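In quintiles of barcodes ordered by Cyp2e1 share within each library, 5 comparisons with 0 h had opposite directions at the ends of the order, and the difference between the ends was not tested. Cyp2f2 after 8 h was higher than at 0 h in the lowest quintile and lower in the highest, a gap of 1.28 on the log2 scale. Hsd17b13 had such a gap of 0.47 after 8 h, 0.60 after 16 h and 0.66 after 24 h, and Alb one of 0.071 after 16 h. With the same Cyp2e1 borders in every library, a choice made after seeing the data, the gaps were 0.46, -0.023, 0.15, 0.083 and 0.015, and of these 5 only Cyp2f2 after 8 h still had opposite directions at the ends.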

How the results depend on the processing

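No paired analysis was possible because each time had 1 library. Without Alb in the denominator, Cyp2f2 had log2 ratios to 0 h of -0.39, -0.20, -0.77 and -0.22 in order of time, and Hsd17b13 -0.092, 0.12, -0.23 and 0.52. By UMIs per barcode, Cyp2f2 had -2.16, -0.95, -0.67 and -0.15, Hsd17b13 -1.86, -0.64, -0.13 and 0.60, and Alb -1.64, -0.66, 0.27 and 0.10, so Hsd17b13 after 16 h and Alb after 8 h and 16 h changed sign. By median-of-ratios scaling over 52 genes, Cyp2f2 had -0.54, -0.16, -0.77 and -0.23, Hsd17b13 -0.24, 0.15 and -0.23 at 8, 16 and 24 h, and Alb -0.021, 0.13, 0.17 and 0.021, with a changed sign after 8 h. In barcodes of 300 or more UMIs Cyp2f2 after 8 h had -0.39 and Alb 0.060 after 8 h and 0.034 after 16 h, and the ratio of Cyp2f2 to Hsd17b13 after 8 h had -0.18.

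The gradients, as medians of 5 libraries, kept their sign. For Cyp2f2 the median of 2.19 became 1.63 with all panel UMIs as denominator, 2.24 by UMIs per barcode, 1.07 in barcodes of 1000 or more UMIs, 2.24 without the top 5% of barcodes, 2.32 with fixed borders and 1.27 ordered by Glul and Gulo. For Hsd17b13 the 1.91 became 1.30, 1.78, 1.17, 1.99 and, by Glul and Gulo, 1.12. For Alb the 0.31 became 0.52, 1.01, 0.18, 0.32, 0.34 (fixed borders) and 0.20. The smallest single gradients were those after 16 h in barcodes of 1000 or more UMIs (0.25, 0.24 and 0.048). Thinning to 100 non-Alb UMIs gave a rho of 0.38, 0.58 and 0.45 for Cyp2f2 with Hsd17b13, Cyp2f2 with Alb and Hsd17b13 with Alb, and within Cyp2e1 deciles it was 0.19, 0.28 and 0.24. The squared CV went from 0.25 to 0.30 for Cyp2f2, 0.38 to 0.33 for Hsd17b13 and 0.025 to 0.019 for Alb at double the thinned depth. With fixed borders, the gap between the low and high Cyp2e1 ends in the log2 ratio to 0 h changed sign for Cyp2f2 at 16, 24 and 30 h (-0.068, -0.50 and -0.64), Hsd17b13 at 8 and 30 h (-0.023 and -0.21) and Alb after 24 h (-0.039). The cause of these shifts was not tested. In the 8 h library, with a median of 149 non-Alb UMIs in the barcodes kept, shares per barcode are the least precise.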
